A study of Mus musculus with 9 samples.

Results

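Genes of blood vessels and of red blood cells were followed across fibroblasts, fibroblast-derived neurons and cortical interneurons. The set held 33 of the 37224 genes of the count table: 21 endothelial genes of the cells that line vessels, 4 mural genes of the pericytes around them, and 8 erythroid genes of red blood cells. They were chosen by symbol, through the Ensembl identifier of each table entry, and no measured value was used. All 33 were found.

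RNA was sequenced from 9 mouse libraries of strain C57BL/6, numbered as in the labels. MEF (libraries 1 to 3) were primary fibroblasts of E13.5 embryos at the passage labelled P0, whose labels also mention a later move to a neuronal inducing medium without saying whether RNA was taken before it. iGABA (libraries 4 to 6) were made from such P0 fibroblasts by delivered transcription factors, from what is known of the study, and taken at 14 days in vitro of conversion, of which the first 2 were in MEF medium before neuronal medium was used. GAD67 (libraries 7 to 9) were uncultured cortical interneurons of E18.5 embryos, picked by GFP in GAD67-GFP animals, GAD67 being the GABA-synthesising enzyme of Gad1. MEF were only detached with trypsin, whereas iGABA and GAD67 cells were also sorted by GFP, so sorting and cell type cannot be told apart in comparisons with MEF. The promoter behind GFP in iGABA cells is not given in the sources used here. No label states separate cultures, litters or animals, so p-values measure only how far these samples spread, and that spread may be technical.

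Endothelial cells answer to vascular endothelial growth factor (VEGF) through the receptors Kdr and Flt1, and Flt4 serves the lymphatic ligands. Angiopoietins act on Tek, and ETS and SoxF transcription factors hold the endothelial programme. In the brain these cells form the blood-brain barrier, pericytes wrap the capillaries, and red blood cells, packed with haemoglobin, are carried inside them.

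Totals per library lay between 27501521 and 38975523 counts, gene positions are given on mm10 as in the count table, and where a library lists 0 the true level may reach 3 counts, or 0.0716 to 0.110 CPM, the count scaled to a common library size (by TMM). The labels were checked on markers of the named cells. The summed level of 8 fibroblast markers was 72690.3 to 79934 CPM in MEF, 716 to 999.8 in iGABA and 115 to 127 in GAD67, and that of 10 interneuron and neuron markers was 59.9 to 63.5, 982 to 990.2 and 9520.5 to 10023 CPM. MEF also held other cells' transcripts: 10 macrophage and microglia markers summed to 469 to 512 CPM, against 0.501 to 0.668 in iGABA, where C1qa and Cx3cr1 were at 0, and 2.15 to 2.43 in GAD67. The GAD67 libraries differed among themselves. Xist, the RNA of the inactive X chromosome, was at 415, 3.76 and 1043 CPM in libraries 7, 8 and 9, lowest in library 8. Over all genes, library 9 was the farther from the others, with a chi-square per gene of 30.1 against library 8 and 13.2 against library 7, and 7.19 between libraries 7 and 8. Values without library 8 or 9 are given where they change a call.

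**Figure D1:**
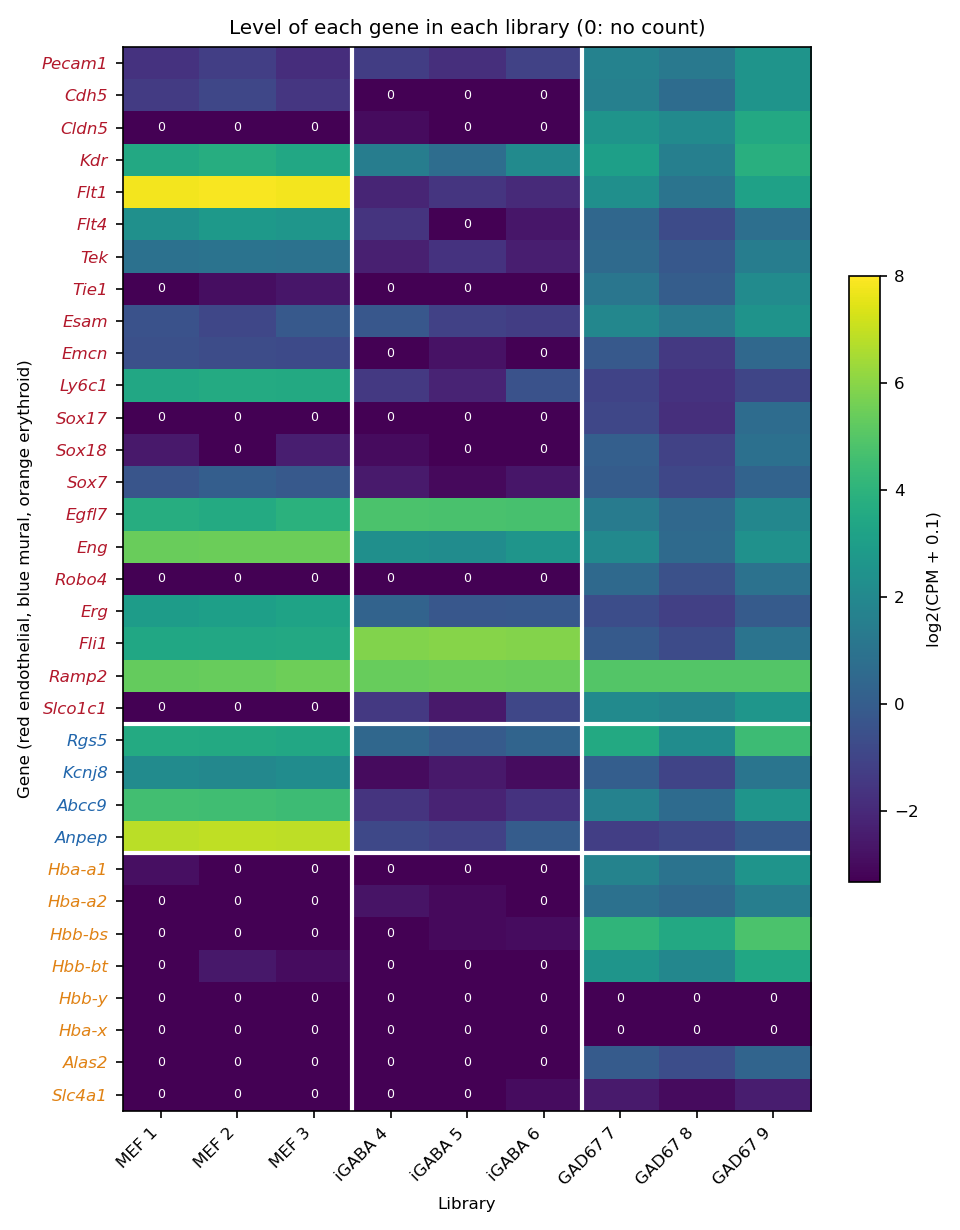
Levels of the 33 genes (rows, coloured by class) in the 9 libraries (columns), as log2(CPM + 0.1), with 0 printed where a library had no count. MEF hold bright Flt1, Eng, Abcc9 and Anpep, iGABA hold bright Fli1 and Egfl7, and globin genes are seen in the GAD67 libraries alone apart from at most 2 counts elsewhere.

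The 3 classes took different shares of each cell type. Summed over the 21 endothelial genes, levels were 367 to 389 CPM in MEF, 138 to 139.9 in iGABA and 57.9 to 116.5 in GAD67. The 4 mural genes summed to 153 to 158, 1.41 to 2.28 and 6.65 to 30.2 CPM. The 8 erythroid genes summed to 0.0302 to 0.0658 CPM in MEF and 0.0478 to 0.0625 in iGABA, which is 1 or 2 counts per library, and to 18.7 to 48.2 in GAD67. Libraries of different groups did not overlap in the endothelial or mural sums, and the spread was widest among GAD67 libraries. A few genes made up much of these sums. In MEF, mean levels were 228 CPM for Flt1 and 116.5 for Anpep. In iGABA they were 59.7 for Fli1, 42.0 for Ramp2 and 26.7 for Egfl7. The endothelial sum was thus higher in iGABA than in GAD67, although 14 of the 21 genes were lower there. In these bulk libraries, the number of vessel or red cells, the RNA per such cell, and expression by the fibroblasts or neurons themselves cannot be told apart.

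Per kilobase of gene model, the scale on which genes can be ranked, each group had other leading members. In MEF the highest mean levels were those of Anpep (30.04 CPM per kb), Flt1 (19.7), Ly6c1 (13.4), Ramp2 (12.7) and Eng (11.1). In iGABA they were Fli1 (19.2 CPM per kb), Ramp2 (12.7) and Egfl7 (7.46), followed by Eng at 1.32. In GAD67 they were Hbb-bs (21.6 CPM per kb), Ramp2 (9.53), Hbb-bt (9.52), Cldn5 (4.97) and Hba-a1 (4.49). Ramp2 was thus among the leading genes of every group, but 1103 of the 3301 bases of its gene model are shared with Vps25 on the same strand, so its reads are uncertain.

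Between MEF and iGABA, 10 endothelial genes fell and 3 rose. Of 21 genes, 10 were lower in iGABA (Cdh5, Kdr, Flt1, Flt4, Tek, Emcn, Ly6c1, Sox7, Eng and Erg), 3 were higher (Egfl7, Fli1 and Slco1c1), 7 were not called and Sox17 had too few counts to be tested, by edgeR's quasi-likelihood test with Benjamini-Hochberg adjustment over 18085 genes at an adjusted p under 0.05. Most genes differ between these cells: 81.9% of all tested genes were called, 42.1% higher and 39.7% lower, so a call alone sets no gene apart. With scaling by library size alone that split became 9941 higher and 5283 lower, against 7618 and 7188, and the median over all genes moved from 0.05 to 0.46 (log2). The median of the 20 tested endothelial genes was -2.67 against 0.05 for all genes. Of the 7 genes not called, Robo4 had no count in either group. Cldn5, Tie1 and Sox18 had 1, 0 and 1 counts over the iGABA group and 0, 3 and 5 over the MEF group. These genes passed the count filter through GAD67, so the median includes genes hardly seen in either group.

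Between MEF and GAD67 the endothelial genes split evenly, much as all tested genes did. In GAD67, 8 were higher (Pecam1, Cdh5, Cldn5, Tie1, Esam, Sox18, Robo4 and Slco1c1), 8 were lower (Flt1, Flt4, Ly6c1, Egfl7, Eng, Erg, Fli1 and Ramp2), 4 were not called (Kdr, Tek, Emcn and Sox7) and Sox17 was not tested, where 86.9% of all genes were called by edgeR (43.1% higher and 43.8% lower). Among the 8 higher genes, Cldn5, Tie1, Sox18, Robo4 and Slco1c1 had at most 5 counts each over the MEF group. They passed the count filter through GAD67, so their direction was fixed by that. The same holds for Cdh5, which had 8, 13 and 8 counts in MEF and none in iGABA. Of the 4 genes not called, Emcn became higher without library GAD67 8 (log2 fold change 0.99, edgeR adjusted p = 0.0235), and Kdr (-1.07, adjusted p = 0.00681) and Tek (-0.72, adjusted p = 0.0269) became lower without library GAD67 9.

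Most of the 21 endothelial genes were lower in iGABA than in GAD67. In iGABA, 14 of the 21 endothelial genes were lower than in GAD67, 3 were higher (Egfl7, Fli1 and Ramp2), and Ly6c1, Eng and Erg were not called, with 80.6% of all genes called by edgeR (41.3% higher and 39.3% lower). Without library GAD67 9 the higher genes numbered 5, with Eng (log2 fold change 0.86, edgeR adjusted p = 0.00716) and Erg (0.98, adjusted p = 0.00948) added, and with scaling by library size alone Erg was called too (0.82, edgeR adjusted p = 0.0247). Several members, such as Cdh5, Cldn5, Tie1 and Robo4, passed the count filter through GAD67 libraries alone, so their counts of calls carry no weight as a group. The 3 comparisons share their libraries in pairs and are not independent of each other.

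**Figure D2:**
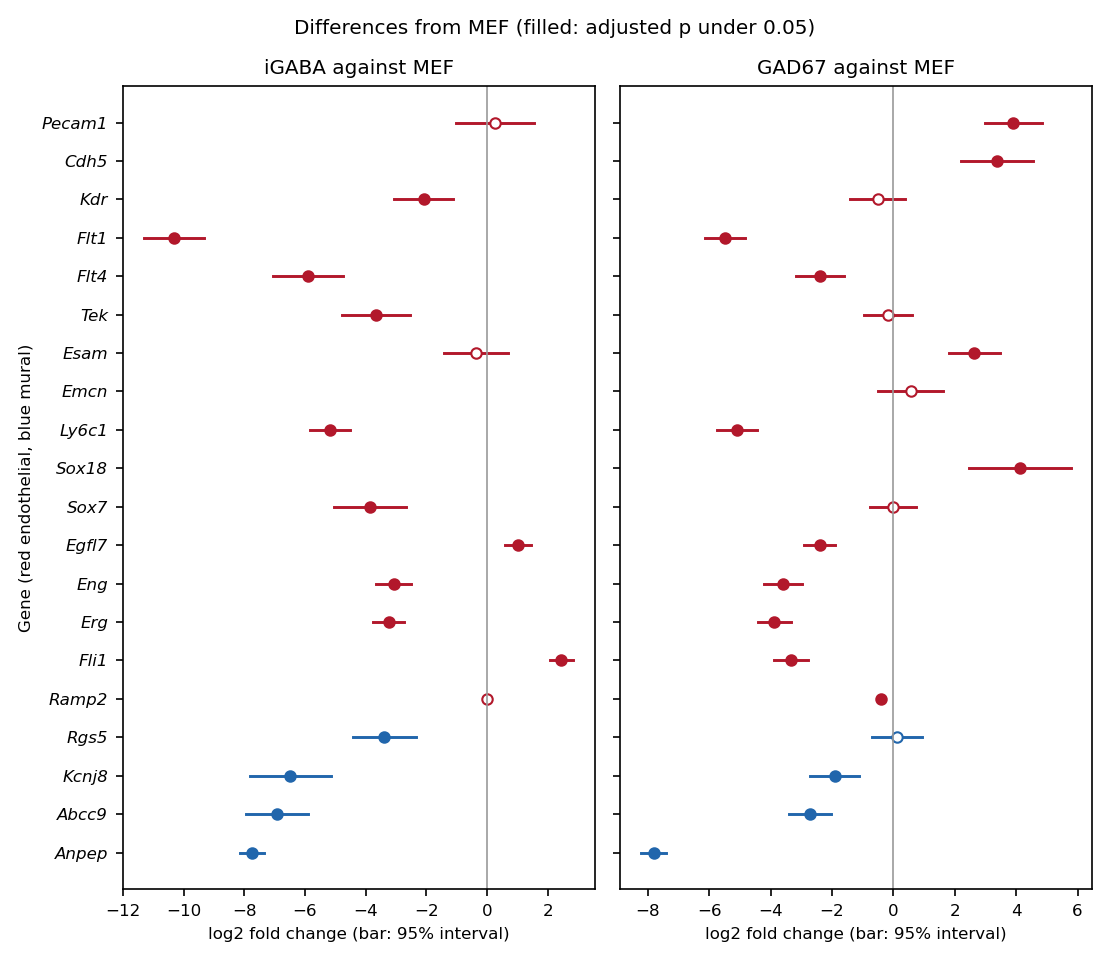
Log2 fold change from MEF (x axis, bars: 95% interval) of the endothelial (red) and mural (blue) genes with more than 3 counts in both groups, with filled points where edgeR's adjusted p was under 0.05. Flt1 lies lowest among endothelial genes in both panels (-10.32 and -5.48), and Fli1 and Egfl7 lie above 0 in iGABA and below 0 in GAD67.

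Among the receptors, Flt1 (also VEGFR1), a high-affinity VEGF receptor that acts largely as a decoy, changed most in iGABA against MEF. Flt1 (ENSMUSG00000029648, chr5:147561604-147726011, - strand) stood at 222, 237 and 226 CPM in MEF, 0.124, 0.239 and 0.156 in iGABA and 4.85, 1.96 and 8.70 in GAD67. MEF were far above both other groups, GAD67 lay between, and no libraries of different groups overlapped. The log2 fold change was -10.32 (95% interval -11.30 to -9.34, adjusted p = 1.61e-10) for iGABA against MEF and -5.48 (95% interval -6.12 to -4.83, adjusted p = 9.12e-10) for GAD67 against MEF by edgeR.

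Kdr (ENSMUSG00000062960, chr5:75932827-75978458, - strand), or VEGFR2, the main signalling receptor for VEGF, was less different. It stood at 11.2, 13.1 and 11.1 CPM in MEF, 2.70, 1.55 and 4.19 in iGABA and 8.22, 2.84 and 13.97 in GAD67. The GAD67 libraries spanned from below the MEF range to above it, and library 8 lay within the iGABA range. Kdr had a log2 fold change of -2.10 (95% interval -3.08 to -1.11, adjusted p = 8.45e-04) in iGABA and -0.51 (95% interval -1.398 to 0.39, adjusted p = 0.260) in GAD67, both against MEF, and edgeR called the first. Per kilobase, MEF held 19.7 CPM of Flt1 and 1.62 of Kdr, whereas GAD67 held 0.446 of Flt1 and 1.15 of Kdr.

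Flt4, or VEGFR3, receives the ligands of lymphatic vessels. It stood at 4.98, 6.78 and 6.07 CPM in MEF, 0.223, 0 and 0.0625 in iGABA and 1.28, 0.504 and 1.64 in GAD67, falling out as MEF above GAD67 above iGABA without overlap. Its log2 fold change from MEF was -5.90 (95% interval -7.05 to -4.75, adjusted p = 2.59e-07) in iGABA and -2.39 (95% interval -3.17 to -1.60, adjusted p = 3.47e-05) in GAD67 (edgeR). Tek (also Tie2), the angiopoietin receptor, stood at 1.76, 1.87 and 1.81 CPM in MEF, 0.0989, 0.215 and 0.0938 in iGABA and 1.404, 0.769 and 2.71 in GAD67. The GAD67 libraries straddled the narrow MEF range and iGABA lay below both, with a log2 fold change from MEF of -3.67 (95% interval -4.78 to -2.55, adjusted p = 2.01e-05) in iGABA and -0.17 (95% interval -0.94 to 0.61, adjusted p = 0.669) in GAD67 (edgeR).

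Tie1, the partner receptor of Tek, followed another pattern. It had 0, 1 and 2 counts in MEF, none in iGABA and 82, 34 and 151 in GAD67. Every GAD67 library was thus above every other library, and GAD67 exceeded MEF 72.0-fold, counting interval 24.4 to 351, while iGABA were at least 90.6-fold below GAD67. Tek and Tie1 therefore did not go together in MEF, where Tek was at 0.385 and Tie1 at 0.00632 CPM per kb. In GAD67 they were at 0.345 and 0.492.

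Endoglin, the product of Eng (ENSMUSG00000026814, chr2:32646595-32682669, + strand), is a co-receptor for ligands of the TGF-beta family on endothelial cells and is also known on stromal cells. Eng stood at 42.4, 43.4 and 43.4 CPM in MEF, 4.95, 4.44 and 5.91 in iGABA and 4.09, 1.405 and 5.28 in GAD67. MEF were above all other libraries, and the other groups overlapped. Relative to MEF, the log2 fold change was -3.08 (95% interval -3.67 to -2.501, adjusted p = 1.91e-07) in iGABA and -3.59 (95% interval -4.196 to -2.98, adjusted p = 4.48e-08) in GAD67 by edgeR. Of its 3870 bases, 124 are shared with Ak1 on the same strand and 61 with Fpgs on the opposite strand.

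Promoters are shown for genes that went opposite ways between MEF and GAD67: Flt1 and Eng, which were high in MEF, and Cldn5 and Slco1c1, which had no count there. Each is the 250 bases before the gene start from RefSeq on GRCm38.p6 (mm10), written 5′ to 3′ on the gene's strand, with the letters GGAAGT (a form of the ETS factor core) or their reverse complement ACTTCC in capitals. The windows are chr5:147726012-147726261, - strand for Flt1, chr2:32646345-32646594, + strand for Eng, chr16:18776597-18776846, + strand for Cldn5 and chr6:141524104-141524353, + strand for Slco1c1.
Flt1: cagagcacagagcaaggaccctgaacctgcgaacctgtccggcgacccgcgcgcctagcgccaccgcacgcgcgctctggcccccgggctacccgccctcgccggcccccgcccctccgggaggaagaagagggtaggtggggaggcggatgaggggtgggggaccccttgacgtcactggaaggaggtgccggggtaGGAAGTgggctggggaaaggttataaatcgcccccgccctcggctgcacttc
Eng: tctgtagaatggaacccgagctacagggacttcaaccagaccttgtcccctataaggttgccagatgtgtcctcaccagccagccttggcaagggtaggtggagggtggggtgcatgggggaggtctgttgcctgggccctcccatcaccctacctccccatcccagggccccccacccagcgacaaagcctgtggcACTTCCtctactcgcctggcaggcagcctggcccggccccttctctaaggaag
Cldn5: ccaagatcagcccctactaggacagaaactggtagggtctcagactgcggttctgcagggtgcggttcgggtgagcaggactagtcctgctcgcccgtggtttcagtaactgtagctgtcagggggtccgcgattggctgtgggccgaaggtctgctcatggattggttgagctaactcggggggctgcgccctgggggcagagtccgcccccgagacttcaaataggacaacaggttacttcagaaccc
Slco1c1: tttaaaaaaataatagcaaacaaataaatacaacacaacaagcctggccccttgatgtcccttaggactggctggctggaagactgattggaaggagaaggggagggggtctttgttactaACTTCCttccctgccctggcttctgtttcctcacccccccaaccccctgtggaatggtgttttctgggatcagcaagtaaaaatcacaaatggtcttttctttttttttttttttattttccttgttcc
Flt1, Eng and Slco1c1 each hold the letters once and Cldn5 does not, so the match does not follow the MEF levels of these 4 genes. RefSeq promoters were matched for 24 of the 33 genes, those of Pecam1, Cdh5, Esam, Sox17, Sox18, Sox7, Fli1, Ramp2 and Slc4a1 not among them. GGAAGT on either strand was in 6 of 13 endothelial, 1 of 4 mural and 0 of 7 erythroid promoters, and in 19.7% of 32851 promoters of the same length. Some of these windows lie partly or wholly inside the gene as placed in the count table. For Egfl7 all 250 bases do and for Tie1 212 do, and both are among the 6 endothelial matches. These matches are letters in a window and not measured binding.

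Genes of endothelial junctions and surfaces were mostly low or at 0 outside GAD67. Cdh5 (ENSMUSG00000031871, chr8:104101625-104144502, + strand), the VE-cadherin of endothelial junctions, stood at 0.293, 0.428 and 0.242 CPM in MEF, 0, 0 and 0 in iGABA and 2.91, 1.48 and 5.65 in GAD67. MEF kept a low level, iGABA had none, and GAD67 libraries were above both. GAD67 exceeded MEF by a log2 fold change of 3.37 (95% interval 2.19 to 4.54, adjusted p = 1.09e-04) (edgeR), and MEF exceeded iGABA at least 12.2-fold. Cdh5 passed the count filter only through GAD67, so the direction of GAD67 against MEF was fixed by that and its p-value carries no weight.

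Pecam1, an adhesion molecule that platelets and leukocytes carry as well, stood at 0.220, 0.329 and 0.181 CPM in MEF, 0.322, 0.191 and 0.375 in iGABA and 3.19, 2.25 and 5.67 in GAD67. MEF and iGABA overlapped and both were below all GAD67 libraries. By edgeR the log2 fold change was 0.26 (95% interval -1.03 to 1.54, adjusted p = 0.697) for iGABA and 3.91 (95% interval 2.99 to 4.83, adjusted p = 1.31e-06) for GAD67, both against MEF. Esam, another adhesion molecule of endothelial junctions, repeated this order with 0.622, 0.428 and 0.785 CPM in MEF, 0.742, 0.358 and 0.313 in iGABA and 3.68, 2.28 and 5.56 in GAD67. The log2 fold change of Esam was -0.36 (95% interval -1.41 to 0.69, adjusted p = 0.501) in iGABA and 2.63 (95% interval 1.80 to 3.46, adjusted p = 2.35e-05) in GAD67 (edgeR, against MEF).

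Claudin 5, the tight junction protein of the blood-brain barrier, is encoded by Cldn5 (ENSMUSG00000041378, chr16:18776847-18778260, + strand). Cldn5 had no count in MEF, 1, 0 and 0 counts in iGABA and 223, 156 and 399 in GAD67, or 5.69, 4.13 and 11.3 CPM. GAD67 were at least 209.8-fold above MEF. It had the highest level per kilobase of the endothelial genes in GAD67 after Ramp2. Slco1c1 (ENSMUSG00000030235, chr6:141524386-141570177, + strand), a thyroid hormone transporter of brain endothelium that astrocytes also express, had no count in MEF, 11, 3 and 14 in iGABA and 161, 131 and 214 in GAD67. GAD67 exceeded MEF at least 136-fold and iGABA exceeded MEF at least 7.42-fold, a call by edgeR on few counts (adjusted p = 0.00416).

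Robo4, an endothelial receptor that steadies vessels, was at 0 in all MEF and iGABA libraries and had 54, 23 and 64 counts in GAD67, at least 38.02-fold above MEF and at least 47.8-fold above iGABA. Emcn, the sialomucin endomucin of capillaries and veins, had 16, 16 and 16 counts in MEF, 0, 2 and 0 in iGABA and 31, 10 and 47 in GAD67. Its MEF level (0.586, 0.526 and 0.483 CPM) lay within the GAD67 range (0.792, 0.265 and 1.33 CPM). Robo4 and Emcn thus parted in MEF, which held one and not the other.

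Ly6c1, a surface protein of capillary endothelium that some leukocytes and stromal cells carry, stood at 11.1, 11.9 and 11.8 CPM in MEF, 0.272, 0.119 and 0.625 in iGABA and 0.383, 0.212 and 0.423 in GAD67. MEF were above all others and the other groups overlapped, with a log2 fold change from MEF of -5.17 (95% interval -5.83 to -4.51, adjusted p = 3.35e-09) in iGABA and -5.08 (95% interval -5.74 to -4.43, adjusted p = 2.43e-09) in GAD67 (edgeR). Its close relative Ly6c2 makes the split of its reads uncertain. The macrophage markers that fell from MEF to both other groups moved with it, and their part in this difference was not tested.

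Egfl7, a secreted vessel protein whose gene holds the microRNA miR-126, had its highest level in converted cells. It stood at 13.03, 11.9 and 14.9 CPM in MEF, 27.7, 26.6 and 25.8 in iGABA and 2.53, 1.33 and 3.73 in GAD67. The groups did not overlap, with iGABA above MEF above GAD67, and the log2 fold change was 1.01 (95% interval 0.59 to 1.43, adjusted p = 3.34e-04) for iGABA against MEF and 3.41 (95% interval 2.92 to 3.90, adjusted p = 1.26e-08) for iGABA against GAD67 by edgeR. Of its 3581 bases, 264 are shared with Gm20532 on the same strand and 64 with Agpat2 on the opposite strand.

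Ramp2, which carries the adrenomedullin receptor to the cell surface, varied least. It stood at 39.97, 40.9 and 44.7 CPM in MEF, 40.7, 43.3 and 42.1 in iGABA and 31.4, 31.7 and 31.3 in GAD67. MEF and iGABA overlapped and all GAD67 libraries were lower, with a log2 fold change of -0.41 (95% interval -0.54 to -0.28, adjusted p = 2.41e-05) for GAD67 against MEF by edgeR. For iGABA against MEF it was 0.01 (95% interval -0.12 to 0.13, adjusted p = 0.941), and with scaling by library size alone it was 0.42 and was called (edgeR adjusted p = 1.39e-05), relative to a median of all genes of 0.46.

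The transcription factors parted into the ETS and SoxF families. Fli1 (ENSMUSG00000016087, chr9:32422208-32541389, - strand), an ETS factor of endothelial and blood cells, stood at 10.7, 11.02 and 11.2 CPM in MEF, 58.5, 61.6 and 59.0 in iGABA and 0.817, 0.504 and 1.98 in GAD67. iGABA were above all MEF libraries and these above all GAD67 libraries. Its log2 fold change was 2.44 (95% interval 2.054 to 2.83, adjusted p = 3.31e-08) for iGABA against MEF and -3.34 (95% interval -3.89 to -2.78, adjusted p = 3.51e-08) for GAD67 against MEF by edgeR, and iGABA exceeded GAD67 by 5.78 (adjusted p = 8.38e-11). The macrophage marker sum was lower in iGABA than in MEF (0.501 to 0.668 against 469 to 512 CPM), and its part in the Fli1 levels was not tested.

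Erg (ENSMUSG00000040732, chr16:95359169-95586593, - strand), the closest relative of Fli1 and an endothelial ETS factor, went the other way. It stood at 7.58, 8.32 and 9.33 CPM in MEF, 1.11, 0.740 and 0.781 in iGABA and 0.536, 0.345 and 0.847 in GAD67. MEF were above the rest without overlap and iGABA overlapped GAD67, with a log2 fold change from MEF of -3.25 (95% interval -3.75 to -2.75, adjusted p = 2.35e-08) in iGABA and -3.87 (95% interval -4.41 to -3.34, adjusted p = 5.29e-09) in GAD67 (edgeR). Per kilobase, Fli1 and Erg were at 3.53 and 2.43 CPM in MEF, 19.2 and 0.253 in iGABA, and 0.354 and 0.166 in GAD67.

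The SoxF factors Sox7, Sox17 and Sox18 act together in vessel formation, and were seen at different levels. Sox7 had 19, 29 and 26 counts in MEF, 3, 1 and 2 in iGABA and 34, 16 and 40 in GAD67. iGABA were below both others, which overlapped, and the log2 fold change from MEF was -3.86 (95% interval -5.04 to -2.69, adjusted p = 2.01e-05) in iGABA and -0.02 (95% interval -0.76 to 0.73, adjusted p = 0.967) in GAD67 (edgeR). Sox17 had no count in MEF or iGABA and 17, 7 and 54 in GAD67, at least 21.03-fold above MEF. Sox18 had 2, 0 and 3 counts in MEF, 1, 0 and 0 in iGABA and 38, 14 and 61 in GAD67, with a log2 fold change of 4.12 (95% interval 2.47 to 5.77, adjusted p = 2.07e-04) for GAD67 against MEF by edgeR. Sox18 passed the count filter through GAD67, so this direction was fixed by that and the p-value carries no weight. All GAD67 libraries were above every other library for Sox17 and Sox18.

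Of the 21 endothelial genes, 4 thus had no count in MEF (Cldn5, Sox17, Robo4 and Slco1c1) and 4 had none in iGABA (Cdh5, Tie1, Sox17 and Robo4), whereas all 21 had counts in every GAD67 library.

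Ligands and partners of these receptors were read from a list of 21 genes. In iGABA against MEF, 15 fell, 4 rose, 1 was not called and Gdf2, at 0 everywhere, was not tested. In GAD67 against MEF, 16 fell, 3 rose and 1 was not called, and in iGABA against GAD67, 9 were higher, 8 lower and 3 not called (edgeR). All tested genes split as given above, with 81.9%, 86.9% and 80.6% called. The ligands of Flt4 were highest in MEF. Vegfc, the main lymphatic growth factor, stood at 25.4, 28.2 and 25.9 CPM in MEF, 0.198, 0.0716 and 0.156 in iGABA and 4.21, 3.92 and 5.11 in GAD67, and Vegfd, its relative, at 78.0, 80.7 and 81.2 CPM in MEF, 0.594, 0.478 and 0.281 in iGABA and 0.0766, 0 and 0.0847 in GAD67. Both were above all other libraries in MEF, with a log2 fold change in iGABA of -7.53 for Vegfc (adjusted p = 1.71e-12) and -7.42 for Vegfd (adjusted p = 1.63e-13) by edgeR.

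Angpt2, the angiopoietin that loosens vessels, stood at 32.7, 35.0 and 36.7 CPM in MEF, 0.346, 0.0955 and 0.2501 in iGABA and 0.204, 0.212 and 0.113 in GAD67. It fell from MEF to both other groups. Adm, the vasodilator adrenomedullin and ligand of the receptor that Ramp2 serves, was at 145 ± 7.77 CPM in MEF, 1.89 ± 0.154 in iGABA and 0.271 ± 0.214 in GAD67 (SD, n = 3). Ptprb, a phosphatase that quiets Tek, was at 9.57 ± 1.01, 0.124 ± 0.0849 and 2.65 ± 1.22 CPM, and was lower in iGABA than in GAD67 by edgeR (-4.30, adjusted p = 1.49e-06). Vegfa, the ligand of Kdr and Flt1, was named after its values were seen. It rose in iGABA, where Flt1 and Kdr both fell, with 259, 221 and 219.9 CPM in MEF, 381, 392 and 369.6 in iGABA and 73.0, 57.8 and 99.7 in GAD67.

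**Figure D3:**
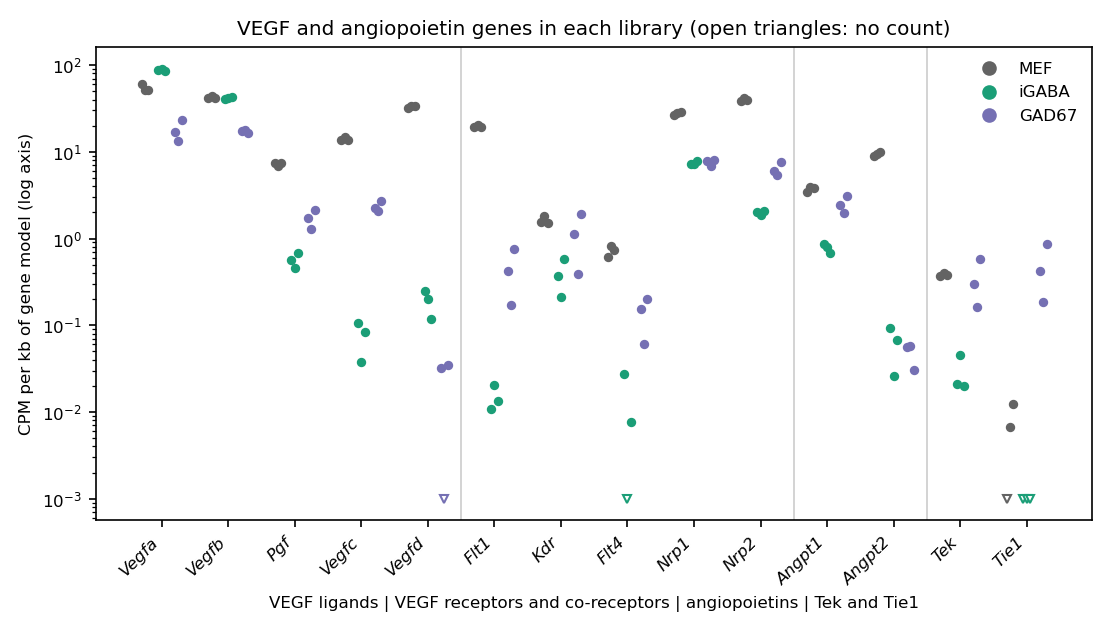
CPM per kilobase of gene model (log axis) of VEGF ligands, VEGF receptors and co-receptors, angiopoietins, and Tek with Tie1, 1 point a library, with open triangles for libraries without a count. Flt1, Vegfc, Vegfd and Angpt2 are highest in MEF, and Tie1 is above 0.1 in GAD67 libraries alone.

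A list of 23 other endothelial genes was read in the same way. In iGABA against MEF 9 rose, 6 fell, 2 were not called and 6 were not tested. In GAD67 against MEF 7 rose, 9 fell and 1 was not called, and in iGABA against GAD67 4 were higher, 12 lower and 1 not called (edgeR), where all tested genes split into 42.1% higher and 39.7% lower, 43.1% and 43.8%, and 41.3% and 39.3%. Those that moved most include genes with known roles in neurons. Prox1, a factor of lymphatic endothelium and of interneurons, rose from 0.589 ± 0.143 CPM in MEF to 83.4 ± 4.66 in iGABA and 147 ± 19.8 in GAD67 (SD, n = 3). Gata2, a factor of endothelial, blood and some neuronal precursors, was at 2.08 ± 0.0323, 49.4 ± 6.15 and 0.284 ± 0.0727 CPM, and rose in iGABA. Tal1, a factor of blood and endothelial precursors, was at 0.756 ± 0.0599 CPM in MEF and had no count in iGABA, at least 28.9-fold lower. Stab1, a scavenger receptor of macrophages and sinusoidal endothelium, fell in iGABA from 36.1 ± 4.003 to 0.265 ± 0.0799 CPM.

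All 4 mural genes fell from MEF to iGABA, and 3 of 4 fell from MEF to GAD67. Their median log2 fold change was -6.70 in iGABA and -2.32 in GAD67, against 0.05 and 0.00 for all tested genes. In iGABA against GAD67, 3 were lower and Anpep was not called, whereas 12 of the 18 other mural and smooth muscle genes below were higher. The shares of all genes called are those given above.

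Kcnj8 and Abcc9 encode the pore and the regulatory subunit of the potassium channel that pericytes open when ATP is low. Abcc9 (ENSMUSG00000030249, chr6:142587862-142702274, - strand) stood at 23.9, 23.3 and 21.3 CPM in MEF, 0.223, 0.119 and 0.219 in iGABA and 3.12, 1.43 and 5.93 in GAD67. Kcnj8 (ENSMUSG00000030247, chr6:142564939-142571356, - strand), its neighbour on the chromosome, stood at 4.32, 3.82 and 4.499 CPM in MEF, 0.0247, 0.0716 and 0.0313 in iGABA and 0.945, 0.398 and 2.03 in GAD67. Both were highest in MEF, intermediate in GAD67 and lowest in iGABA, with no overlap between groups. The log2 fold change of Abcc9 from MEF was -6.93 (95% interval -7.96 to -5.89, adjusted p = 1.65e-08) in iGABA and -2.72 (95% interval -3.40 to -2.03, adjusted p = 2.75e-06) in GAD67, and that of Kcnj8 was -6.48 (95% interval -7.82 to -5.14, adjusted p = 4.75e-07) and -1.92 (95% interval -2.72 to -1.11, adjusted p = 3.06e-04) (edgeR).

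Rgs5 (ENSMUSG00000026678, chr1:169655501-169695813, + strand), a regulator of G protein signalling and a leading pericyte marker, varied widely among GAD67 libraries. Rgs5 levels were 11.9, 11.55 and 10.9 CPM in MEF, 1.26, 0.860 and 1.16 in iGABA and 11.8, 4.40 and 21.5 in GAD67. GAD67 libraries fell below, within and above the MEF range, and iGABA were lower than all of them. From MEF, the log2 fold change was -3.39 (95% interval -4.43 to -2.35, adjusted p = 2.21e-05) in iGABA and 0.13 (95% interval -0.68 to 0.94, adjusted p = 0.7497) in GAD67 by edgeR. Without library GAD67 8, Rgs5 was called higher in GAD67 (log2 fold change 0.54, adjusted p = 0.0171), which made 1 mural gene higher in place of 0.

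Anpep (ENSMUSG00000039062, chr7:79821803-79848210, - strand), the aminopeptidase CD13 of pericytes, fibroblasts and myeloid cells, was the most abundant mural gene of MEF. It stood at 113, 119 and 118 CPM in MEF, 0.445, 0.358 and 0.875 in iGABA and 0.332, 0.424 and 0.819 in GAD67. MEF were far above the others, which overlapped. Relative to MEF, the log2 fold change was -7.76 (95% interval -8.15 to -7.36, adjusted p = 4.02e-13) in iGABA and -7.81 (95% interval -8.205 to -7.41, adjusted p = 1.73e-13) in GAD67 by edgeR. Fibroblast and macrophage marker sums fell between the same groups, and their part in this difference was not tested.

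Among 18 other mural and smooth muscle genes, 15 fell, 0 rose, 2 were not called and Higd1b was not tested in iGABA against MEF, and 16 fell and 1 rose in GAD67 against MEF (edgeR). In iGABA against GAD67, 12 were higher, 3 lower and 2 not called (edgeR), with a median log2 fold change of 2.35. Of all tested genes, 41.3% were higher and 39.3% lower in that comparison. The largest falls from MEF were those of contractile genes, which cultured fibroblasts express as well as muscle. Acta2, smooth muscle actin, was at 4709 ± 255 CPM in MEF, 6.53 ± 1.72 in iGABA and 1.27 ± 0.0965 in GAD67, and Tagln, which binds actin, at 2024 ± 114, 6.44 ± 1.21 and 0.847 ± 0.148 (SD, n = 3). Vtn, vitronectin, a matrix protein that brain pericytes make, was the tested gene that rose in GAD67, with 0.146, 0.0658 and 0.121 CPM in MEF, 0.0742, 0.0239 and 0.0938 in iGABA and 2.15, 1.03 and 2.96 in GAD67. Higd1b, not tested, had no count in MEF or iGABA and 44 over the GAD67 group (0.536, 0.0265 and 0.621 CPM), at least 11.9-fold above MEF. Mcam, an adhesion molecule of pericytes and endothelium, was in iGABA at 106 ± 5.32 CPM against 116.4 ± 3.28 in MEF and 2.69 ± 1.55 in GAD67.

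Erythroid genes were seen in GAD67. The 5 that could be tested (Hba-a1, Hba-a2, Hbb-bs, Hbb-bt and Alas2) were all higher in GAD67 than in MEF and in iGABA by edgeR, and Hbb-y, Hba-x and Slc4a1 had too few counts to be tested. These 5 passed the count filter through their GAD67 counts, so their direction was fixed by that. None was called between iGABA and MEF, where 0 had an unadjusted p under 0.05, DESeq2 called 0 as well, and each group had at most 3 counts of a gene.

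Haemoglobin joins a pair of alpha chains to a pair of beta chains, and mice switch from embryonic to adult chains before birth. Hbb-bs (ENSMUSG00000052305, chr7:103826534-103828096, - strand), an adult beta globin, had no count in MEF, 0, 1 and 1 in iGABA and 661, 423 and 990 in GAD67, or 16.9, 11.2 and 27.9 CPM. GAD67 exceeded MEF at least 559-fold. Its partner Hbb-bt had 0, 2 and 1 counts in MEF, none in iGABA and 232, 139 and 371 in GAD67, or 5.92, 3.68 and 10.5 CPM, at least 252-fold above iGABA. No library outside GAD67 had more than 2 counts of either.

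Adult alpha globin was lower in counts. Hba-a1 (ENSMUSG00000069919, chr11:32283511-32284465, + strand) had 1, 0 and 0 counts in MEF, none in iGABA and 128, 71 and 205 in GAD67, or 3.27, 1.88 and 5.79 CPM. Hba-a2 had none in MEF, 2, 1 and 0 in iGABA and 69, 52 and 97 in GAD67, or 1.76, 1.38 and 2.74 CPM, at least 58.8-fold above MEF. For all 4 adult globins, library 9 was highest and library 8 lowest of the GAD67 group.

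The embryonic chains Hbb-y (epsilon-like) and Hba-x (zeta-like) had no count in any of the 9 libraries, where up to 3 counts a library could have been missed. The globin RNA seen was therefore that of the adult genes. Alas2, the first enzyme of haem synthesis in red cells, had no count in MEF or iGABA and 33, 20 and 41 in GAD67 (0.843, 0.530 and 1.16 CPM), at least 25.3-fold above MEF. Of its 2403 bases, 311 lie opposite Apex2. Slc4a1, the anion exchanger band 3 of the red cell membrane, had 3, 1 and 3 counts in GAD67, 1 in iGABA and none in MEF, so globins were seen with few counts of this membrane gene.

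How far the globin counts can be told apart is shown by their coding sequences. Stretches of 80 bases are printed 5′ to 3′ from GENCODE vM21 transcripts, alpha chains from coding base 322 to 401 and beta chains from 358 to 437, counted from 1 at the start codon, with capitals where a base differs from Hba-a1 or, for beta chains, from Hbb-bs.
Hba-a1: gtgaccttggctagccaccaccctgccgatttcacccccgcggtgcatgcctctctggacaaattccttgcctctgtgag
Hba-a2: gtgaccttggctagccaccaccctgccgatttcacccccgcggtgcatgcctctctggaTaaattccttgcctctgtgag
Hba-x: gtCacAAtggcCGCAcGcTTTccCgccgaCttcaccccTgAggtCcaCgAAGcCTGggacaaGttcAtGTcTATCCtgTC
Hbb-bs: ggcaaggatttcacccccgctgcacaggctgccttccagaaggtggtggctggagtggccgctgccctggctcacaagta
Hbb-bt: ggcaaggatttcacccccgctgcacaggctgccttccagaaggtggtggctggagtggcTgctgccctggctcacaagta
Hbb-y: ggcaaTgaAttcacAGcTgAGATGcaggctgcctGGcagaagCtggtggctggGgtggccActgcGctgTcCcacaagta
Over 429 coding bases, Hba-a1 and Hba-a2 differ by C381T alone, and over 444 coding bases Hbb-bs and Hbb-bt differ by C417T alone, the base of the first gene named being written first. The embryonic genes are distinct, since Hba-x differs from Hba-a1 at 163 coding bases (62.0% identity) and Hbb-y from Hbb-bs at 114 (74.3%). Of all 50-base windows in the transcripts, 67.5% of Hba-a1, 86.9% of Hba-a2, 65.8% of Hbb-bs and 58.3% of Hbb-bt occur in the partner gene, and 0 of Hba-x or Hbb-y occur in another gene. The split between Hba-a1 and Hba-a2, and between Hbb-bs and Hbb-bt, is therefore uncertain. How reads that match both partners were counted is not known here, so the level of each pair and the order of alpha and beta genes are uncertain too. The counts of 0 for Hbb-y and Hba-x do not meet this limit.

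Other erythroid genes were read from a list of 19. In GAD67 against MEF, 5 fell, 4 rose and 10 were not tested (edgeR), where 43.8% of all tested genes fell and 43.1% rose, and Gata1, Epb42, Rhag, Hbb-bh1, Hbb-bh2, Hbq1a and Car1 were at 0 in GAD67. Those that rose in iGABA are not confined to red cells. Tfrc, the transferrin receptor by which dividing and many other cells take up iron, was at 15.3 ± 0.630 CPM in MEF, 307 ± 17.9 in iGABA and 112 ± 2.445 in GAD67, and Ank1, an ankyrin of red cells and neurons, at 2.72 ± 0.122, 26.2 ± 4.08 and 27.4 ± 8.48 (SD, n = 3). Of 5 megakaryocyte and platelet markers, Pf4, Gp9 and Gp1ba were at 0 in GAD67, and the 5 summed to 2.48 to 3.12 CPM there against 20.49 to 21.6 in MEF.

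Within the GAD67 group the 3 classes varied together from library to library. Library 9 was highest, library 7 next and library 8 lowest for 20 of 21 endothelial genes, 3 of 4 mural genes and all 5 erythroid genes with at least 30 counts over the group, against 31.0% of the 15825 genes with that many counts, and library 8 was lowest for 39.2% of those. Library 9 exceeded library 8 by more than 2-fold for 18 of 21 endothelial, 3 of 4 mural and 4 of 5 erythroid genes, where 2.49% of all genes did so and 3.51% were more than 2-fold lower in library 9. The median ratio of library 9 to library 8 was 3.25 for endothelial, 4.51 for mural and 2.49 for erythroid genes, and 0.999 for all genes. This is a description of 3 libraries, with no test.

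Single genes give the range. The ratio of library 9 to library 8 was 8.22 for Sox17, 5.11 for Kcnj8, 5.01 for Emcn, 4.93 for Kdr, 4.88 for Rgs5, 3.80 for Cdh5 and 2.49 for Hbb-bs. Ramp2, at 31.4, 31.7 and 31.3 CPM in libraries 7, 8 and 9, and Anpep, at 0.332, 0.424 and 0.819, did not keep the order. Ly6c1 (1.997), Slco1c1 (1.74) and Hba-a2 (1.99) kept it with a ratio under 2.

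**Figure D4:**
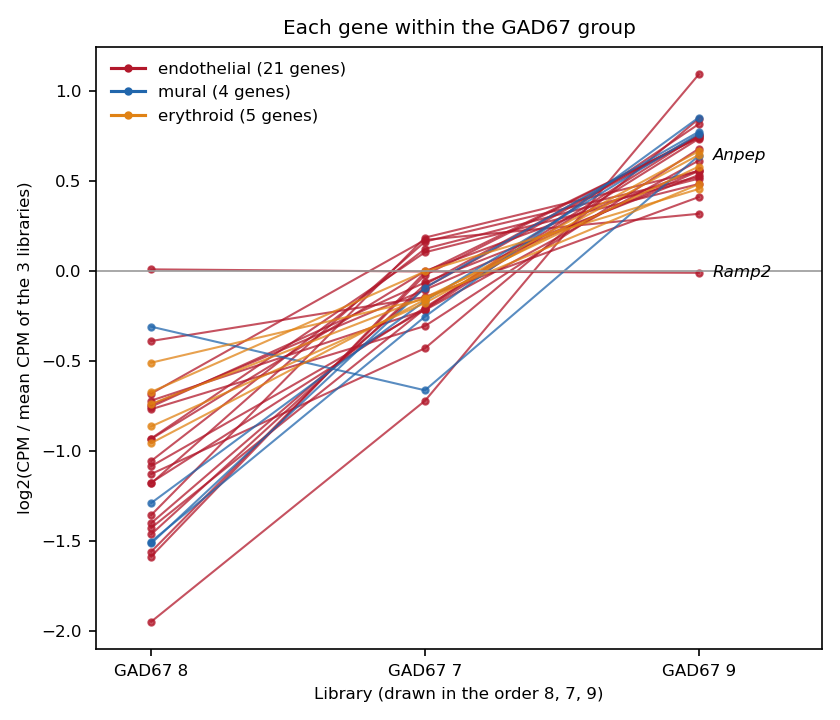
Level of each gene in a GAD67 library relative to its mean over the 3 libraries (y axis, log2), with libraries placed in the order 8, 7, 9 and 1 line a gene, coloured by class, for the 30 genes with at least 30 counts. Nearly all lines climb from library 8 to library 9, with Ramp2 flat and Anpep lowest in library 7.

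Other lists show which genes had this order. It was found in 16 of 18 other endothelial genes with at least 30 counts, 10 of 14 other mural and smooth muscle genes, 11 of 14 brain barrier genes and 12 of 18 VEGF, angiopoietin and related genes. Of 5 other erythroid genes 1 had it, and their median ratio of library 9 to library 8 was 0.952, against 2.49 for the erythroid genes above. It was found in 0 of 6 fibroblast markers, 0 of 2 macrophage markers, 3 of 8 haem synthesis genes and 6 of 10 interneuron and neuron markers, whose median ratio of library 9 to library 8 was 1.08. Xist, at 1043 against 3.76 CPM, had the largest ratio, and Fos, an immediate early gene, had the opposite order at 125, 180 and 33.8 CPM in libraries 7, 8 and 9. The part of these in the order of vessel and red cell genes was not tested. With library 8 left out, 10 endothelial and 5 erythroid genes were called higher in GAD67 than in MEF by edgeR, and with library 9 left out 8 and 5 were. The 10 are the 8 called with all libraries, Emcn, and Sox17, which was not tested with all libraries. Sox17 entered because the count filter asks for fewer libraries when a group is smaller, so its addition is a change of filter.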

How the data were processed

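The authors deposited whole-number read counts per gene, not normalised, in a single table of 9 libraries. Per the submitters' processing notes, BWA 0.7.2, featureCounts and DESeq 1.10.1 were used with mm10. The sources used here do not give their roles, the annotation release or the strand setting, so reads of genes on opposite strands may be mixed although the labels name a dUTP (strand-marking) library method. Symbols came from GENCODE vM21.

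Counts were analysed in R 4.3.3 with edgeR 4.0.16: filterByExpr (minimum count 10, minimum total 15) kept 18085 genes, TMM scaled the libraries, and the quasi-likelihood test was fitted to all 9 libraries and p-values adjusted by Benjamini-Hochberg over those 18085. Calls were made at an adjusted p under 0.05. DESeq2 1.42.0 was an alternative. The fit was tested on simulated data. Folds against a group at 0 are bounds against 3 counts over the group, and ratios against 1 to 3 counts carry exact 95% counting intervals, which cover counting error only, since PCR copies are not independent molecules. No replicate pair agreed within sampling noise (chi-square per gene at least 2.49).

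All members are given. From each of the other lists at most 3 genes per comparison are named, those with the largest log2 fold change among genes called with groups that do not overlap, plus genes said to be at 0 and those marked as picked afterwards. Members and lists were chosen with earlier results of these data known. Ahsp, in one list, was not analysed here. Some items are not reported here. Sequences came from RefSeq (GRCm38.p6) and GENCODE vM21.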

Additional observations from a re-analysis of the deposited data

How the results depend on the processing

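The number of members called in each class, direction and comparison was recomputed with RLE size factors, library size alone, DESeq2, no filter beyond 1 count, only the libraries of the pair compared, and each library left out. Of 264 counts, those over all genes included, 262 were within 1.5 times the reported count, and 2 were not. Mural genes higher in GAD67 than in MEF ranged from 0 to 1 over the left-out libraries, 1 without GAD67 8. Endothelial genes higher in iGABA than in GAD67 ranged from 3 to 5, 5 without GAD67 9. The cause was not tested.

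Of 922 recomputed log2 fold changes of members, 892 kept direction and call, 0 lost a call, 8 gained one and 22 changed sign, none of these called. Ramp2, iGABA against MEF, was -0.032 with RLE size factors and -0.021 with DESeq2, and -0.030 to 0.053 over the left-out libraries. With library size alone, Esam in iGABA against MEF was 0.055, Tek and Sox7 in GAD67 against MEF were 0.055 and 0.21, and Ly6c1 in iGABA against GAD67 was 0.11. Sox7 in GAD67 against MEF was 0.015 with no filter and 0.011 with only the pair's libraries. Over the left-out libraries, GAD67 against MEF ranged from -0.31 to 0.29 for Sox7, -0.72 to 0.17 for Tek and -0.48 to 0.54 for Rgs5, and iGABA against GAD67 from -0.78 to 0.35 for Ly6c1 and -0.36 to 0.49 for Anpep. Library size alone moved the median of all genes to 0.46 in iGABA against MEF, 0.22 in GAD67 against MEF and 0.22 in iGABA against GAD67.

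No paired analysis was possible because the groups share no replicate number. Leaving out MEF 1 for Hba-a1, or iGABA 4 for Cldn5, left no count in either group of iGABA against MEF, so there is no value. Genes at 0 are limited by depth to the bounds given, which cover counting error only.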

Other observations

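Brain barrier genes other than Cldn5 and Slco1c1 were read from a list of 14. Of these, 9 fell, 2 rose and 3 were not called in GAD67 against MEF, and 4 rose, 8 fell and 2 were not called in iGABA against MEF (edgeR). Of all tested genes, 43.8% fell and 43.1% rose in the first comparison and 39.7% and 42.1% in the second. In iGABA against GAD67, 8 were higher, 5 lower and 1 not called (edgeR), where 41.3% of all tested genes were higher and 39.3% lower. Slc38a5, an amino acid transporter of brain endothelium, had 1, 0 and 0 counts in MEF, 0, 0 and 1 in iGABA and 43, 23 and 70 in GAD67, and thus shared the pattern of Cldn5. Itm2a, a membrane protein of endothelial and mesenchymal cells, was at 642 ± 46.7 CPM in MEF, 13.3 ± 2.16 in iGABA and 5.59 ± 1.44 in GAD67 (SD, n = 3). Mfsd2a, the lipid transporter of the barrier, was highest in iGABA with 2.0498, 2.4999 and 2.60 CPM in MEF, 36.2, 36.0 and 35.6 in iGABA and 2.78, 1.46 and 4.26 in GAD67, as was Lsr, an angulin of cell corners, with 3.40, 2.83 and 4.02 CPM in MEF, 49.8, 60.7 and 45.1 in iGABA and 0.919, 1.01 and 2.32 in GAD67.

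The enzymes that make haem in all cells moved in both directions, as all tested genes did. Of 8, 4 rose, 2 fell and 2 were not called in iGABA against MEF, and 3 rose, 4 fell and 1 was not called in GAD67 against MEF (edgeR). Uros, a middle step of the path, was at 6.20 ± 0.341 CPM in MEF, 24.9 ± 0.624 in iGABA and 20.03 ± 1.11 in GAD67, and Fech, the last step, at 60.8 ± 2.26, 20.1 ± 0.771 and 17.4 ± 3.30 (SD, n = 3).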
